A study of Mus musculus with 5 samples.

Results

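The mitochondrially encoded genes were examined in RNA recovered with an antibody to Staufen1 from mouse muscle stem cells. They were taken as every gene of the deposited count table whose coordinates begin on chromosome MT, a choice that uses position only. 9 of the 11194 genes in the table met it. 7 encode proteins, namely ND1, ND2, ND4, ND5 and ND6 (subunits of complex I, the NADH dehydrogenase), CYTB (cytochrome b of complex III) and COX1 (a catalytic subunit of complex IV, cytochrome c oxidase). The other 2 carry no symbol in the table and have exactly the coordinates that RefSeq gives for mt-Rnr1 and mt-Rnr2, the ribosomal RNAs of the small and the large mitochondrial ribosomal subunit.

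Mitochondrial DNA is transcribed from both strands into long precursors. These are cut mainly at the transfer RNAs that lie between the genes, and most of the resulting RNAs receive a short poly(A) tail inside the organelle. The encoded proteins are core subunits of the respiratory chain and of ATP synthase, and all their other partners are made from nuclear genes. Staufen1 binds RNA duplexes and is known mainly from the cytoplasm, and muscle stem cells at rest are known for a low mitochondrial content.

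The study used an antibody to Staufen1 on muscle stem cells of mice labelled Stau+/+ (wild type, 3 libraries) or Stau-/- (Staufen knockout, 2 libraries). The RNA that came down was sequenced. The design text calls the cells quiescent, and the labels give no age, sex or strain. They leave unsaid if replicates are separate animals. The p-values below thus rest on the spread between these libraries, which may be technical, and on spread pooled over all genes. Every library is a precipitate made with the same antibody. If the knockout label holds, RNA in those libraries was not recovered through Staufen1. A higher value in knockout is then a larger share of such a precipitate. No input RNA was analysed here, so the amount of an RNA in the cells and its recovery by the antibody cannot be told apart, nor can fewer cells of a type and less RNA per cell. Per the labels' protocols, 100 pg of RNA was copied with oligo(dT) priming, amplified, and sequenced as paired reads of 101 bases.

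The libraries differed in ways that touch every result. Totals ran from 33846391 to 105473455 counts in the libraries labelled wild type and from 3091302 to 9370244 in those labelled knockout, so each knockout library was shallower than each wild type library and depth and genotype label cannot be told apart by group. The targeted gene was not lower in the libraries labelled knockout: Stau1 had 104.3, 126.8 and 118.2 CPM (a gene's counts scaled to a common library total, here with TMM factors, which come from the trimmed mean of log ratios between libraries) in wild type 1 to 3 and 109.0 and 110.7 CPM in knockout 1 and 2. The log2 fold change, wild type over knockout, was 0.08 with an SE of 0.19 and an edgeR adjusted p of 0.847. The table gives a count per gene and none for single exons, and neither the allele nor the protein was examined here. Groups are named by their labels throughout. All 12 muscle stem cell markers were detected, and Pax7, a transcription factor that marks such cells, had 180.7 to 263.2 CPM.

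As a group, the mitochondrial RNAs took a larger share of the libraries labelled knockout. The 9 genes held 0.645%, 1.04% and 1.00% of all counts in wild type 1, 2 and 3 and 1.93% and 2.12% in knockout 1 and 2. The lowest knockout library was 1.85 times the highest wild type library. Group means were 0.896% ± 0.218 (SD, n = 3) and 2.02% ± 0.133 (SD, n = 2), a 2.26-fold difference, and the wild type libraries differed among themselves by 1.61-fold. The exact 95% binomial interval of a share was widest in knockout 2, at 2.10% to 2.13%. It covers counting error only, because the protocol names no molecular identifiers. No test was made on the share, since 9 genes picked as a set give no independent p.

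The share ran opposite to depth in every library. Wild type 1, the deepest, had the lowest share, followed by wild type 3, wild type 2, knockout 1 and knockout 2, which is the order of falling totals. The order also held among the wild type libraries alone, where wild type 1 had 3.12 times the total of wild type 2. With 5 libraries no correlation was computed. When every library was thinned at random to the total of the shallowest, the same 4 mitochondrial genes were called as with all counts. Random thinning keeps the share of each gene in a library on average. It evens out counting noise only, and cannot show if what made a library shallow also changed its makeup. When the log2 library total was added to the model as a covariate, an alternative chosen after seeing the data, 0 of the 9 genes were called by edgeR and the median log2 fold change turned from -0.51 to 0.10, with 0 at an unadjusted p under 0.05. In that model 1 of all 11194 genes was called.

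**Figure D1:**
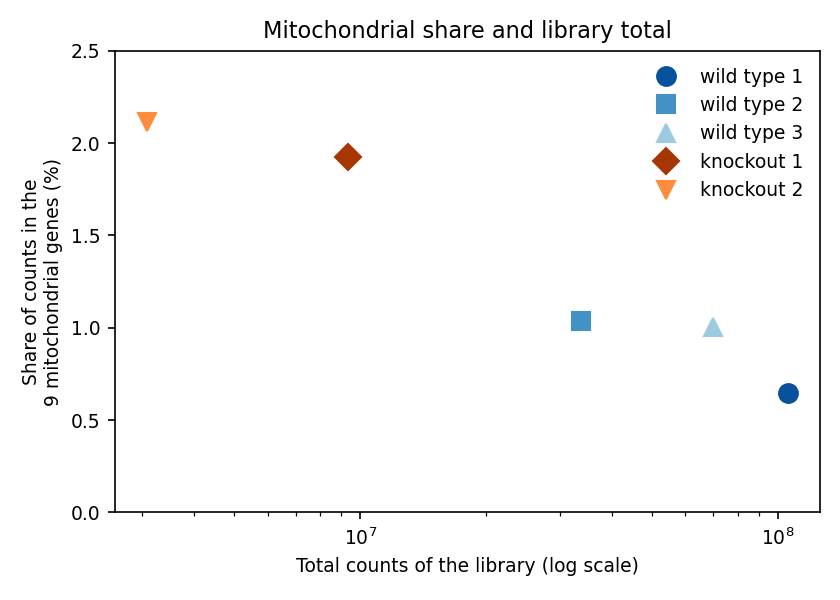
Share of all counts held by the 9 mitochondrial genes (%) against the total count of each library (log axis), 1 point per library. The shares are 0.645%, 1.00% and 1.04% in wild type and 1.93% and 2.12% in knockout, and they rise as the totals fall.

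Between genotypes, 4 of the 9 genes passed the test, all of them higher in the libraries labelled knockout: mt-Rnr1, mt-Rnr2, ND1 and COX1. Of all genes, 1% were called higher in knockout and 2.05% either way (edgeR quasi-likelihood test, adjusted p under 0.05 by Benjamini-Hochberg over all 11194 genes). 0 mitochondrial genes were called higher in wild type by edgeR, DESeq2 or limma-voom. Over all genes edgeR called 1.05% higher in wild type, so 0 of 9 is near that share. DESeq2 called 8.04% of all genes either way and limma-voom 0.197%. At an unadjusted edgeR p under 0.05, 8 of the 9 differed, against 20.4% of all genes. Of these 8, 7 were higher in knockout and 1, ND6, in wild type. In 7 of the 9, every knockout library lay above every wild type library, which was so for 18.1% of all genes. In 0 of the 9, every wild type library lay above every knockout library, which was so for 20.4% of all genes. The median log2 fold change, wild type over knockout, was -0.51 over the 9 genes and 0.0032 over all genes, and single genes ran from -1.61 for mt-Rnr2 to 0.64 for ND6.

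**Figure D2:**
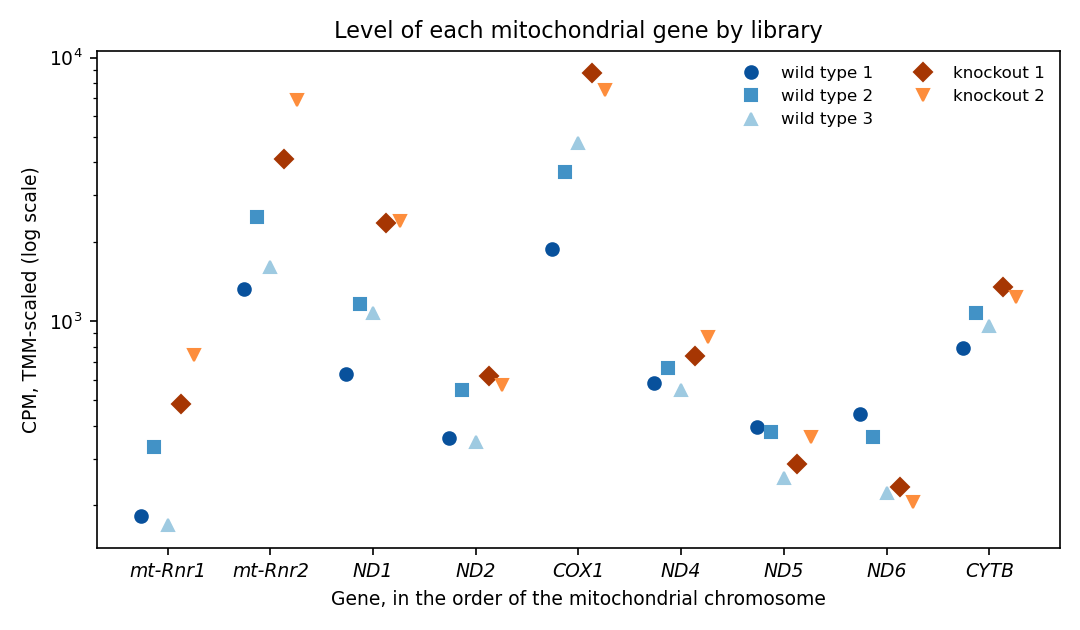
CPM on TMM-scaled totals (log axis) of each mitochondrial gene in the 5 libraries, in the order of the chromosome, 1 point per library. Both knockout libraries lie above all wild type libraries in 7 genes, and the groups overlap in ND5 and ND6.

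With all libraries in the fit, the ribosomal RNAs had the largest log2 fold changes of the 9. That order did not hold without knockout 2, where COX1 (-1.35) and ND1 (-1.31) exceeded them. Without wild type 3, COX1 was the largest (-1.56). It was also the largest with the replicate number as a block (-1.62), a fit in which wild type 3 adds nothing to the genotype difference. mt-Rnr2 (chromosome MT, 1094 to 2675, plus strand, mm10), which makes the large ribosomal RNA, had 1325, 2479 and 1604 CPM in wild type 1 to 3 and 4118 and 6885 CPM in knockout 1 and 2. The groups did not overlap, and knockout 2 was 1.67 times knockout 1. The means of 1803 ± 602 CPM (SD, n = 3) in wild type and 5502 ± 1957 CPM (SD, n = 2) in knockout gave a 3.05-fold difference. The fitted log2 fold change was -1.61 with an SE of 0.26, at an edgeR adjusted p of 0.0120. It was not called without wild type 3 (edgeR adjusted p = 0.0502) or without knockout 2 (log2 fold change -1.19, edgeR adjusted p = 0.0588).

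mt-Rnr1 (chromosome MT, 70 to 1024, plus strand, mm10), which makes the small ribosomal RNA, had 182.8, 333.8 and 168.0 CPM in wild type 1 to 3 and 486.0 and 744.1 CPM in knockout 1 and 2. As with mt-Rnr2, the groups lay apart, wild type 2 was the highest wild type library and knockout 2 the highest of all. Means were 228.2 ± 91.8 CPM (SD, n = 3) in wild type and 615.1 ± 182.5 CPM (SD, n = 2) in knockout, and the log2 fold change was -1.43 with an SE of 0.27, at an edgeR adjusted p of 0.0198. Leaving out wild type 1, wild type 3 or knockout 2 ended the call, with an edgeR adjusted p of up to 0.103, as did limma-voom (adjusted p = 0.0755). Per kilobase, the 2 ribosomal RNAs were far from equal: mt-Rnr2 had 4.37 to 5.76 times the counts of mt-Rnr1 in wild type and 5.11 and 5.59 times in knockout, although their genes are neighbours separated only by the transfer RNA gene TrnV.

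ND1 was the mitochondrial gene whose call depended least on single libraries. ND1 (chromosome MT, 2751 to 3707, plus strand, mm10) had 628.9, 1163 and 1077 CPM in wild type 1 to 3 and 2366 and 2398 CPM in knockout 1 and 2. The knockout libraries were within 1.01-fold of each other, while wild type 1 stood below the other wild type libraries. The mean was 956.1 ± 286.6 CPM in wild type (SD, n = 3) and 2382 ± 22.8 CPM in knockout (SD, n = 2), which is 2.49-fold, and the log2 fold change was -1.32 with an SE of 0.23, at an edgeR adjusted p of 0.0143. It was called with each library left out, at edgeR adjusted p of 0.0133 to 0.0448, and was the only one of the 9 for which this held.

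COX1 encodes the core subunit of cytochrome c oxidase, where oxygen is reduced, and had the most counts of the 9 genes in every library. COX1 (chromosome MT, 5328 to 6872, plus strand, mm10) had 1870, 3693 and 4726 CPM in wild type 1 to 3 and 8714 and 7519 CPM in knockout 1 and 2. Its 3 wild type libraries were the most spread of any member, 2.53-fold from lowest to highest, and still lay below both knockout libraries. The mean was 3430 ± 1446 CPM in wild type (SD, n = 3) and 8117 ± 845 CPM in knockout (SD, n = 2), which is 2.37-fold, and the log2 fold change was -1.24 with an SE of 0.28, at an edgeR adjusted p of 0.0400. It was not called without wild type 1 (log2 fold change -0.95), wild type 2, knockout 1 or knockout 2, with edgeR adjusted p of 0.0522 to 0.0951, or with limma-voom (adjusted p = 0.105).

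The remaining complex I genes and CYTB did not pass the test. ND2 (chromosome MT, 3914 to 4951, plus strand, mm10) had 359.3, 546.3 and 348.8 CPM in wild type and 619.6 and 572.9 CPM in knockout, with wild type 2 close below the knockout libraries. Its log2 fold change was -0.51 (95% interval -0.96 to -0.06, edgeR adjusted p = 0.191), and it was called only without wild type 2 (edgeR adjusted p = 0.0406). ND4 (chromosome MT, 10167 to 11544, plus strand, mm10) had 583.4, 663.3 and 547.7 against 734.5 and 873.6 CPM. Its groups lay apart by a narrow margin, and its log2 fold change was -0.43 (95% interval -0.81 to -0.04, edgeR adjusted p = 0.197). CYTB (chromosome MT, 14145 to 15288, plus strand, mm10), which carries electrons within complex III, had 792.1, 1072 and 956.3 against 1346 and 1237 CPM. Its groups also lay apart, with a log2 fold change of -0.46 (95% interval -0.85 to -0.07, edgeR adjusted p = 0.181).

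ND5 and ND6 were the only members whose libraries overlapped between groups. ND5 (chromosome MT, 11742 to 13565, plus strand, mm10), a proton-pumping subunit of complex I, had 396.4, 380.7 and 253.7 CPM in wild type and 285.9 and 363.6 CPM in knockout. Both knockout values fell inside the wild type range, and the log2 fold change was 0.08 (95% interval -0.38 to 0.55, edgeR adjusted p = 0.872). ND6 (chromosome MT, 13552 to 14070, minus strand, mm10), a membrane subunit of complex I, had 445.0, 363.6 and 222.7 CPM in wild type and 233.9 and 205.5 CPM in knockout. It was high in wild type 1 and 2, and wild type 3 lay between the knockout libraries. Its log2 fold change was 0.64 (95% interval 0.11 to 1.18, edgeR adjusted p = 0.170).

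ND6 is the only one of the 9 on the minus strand. Its gene shares 14 bases with ND5, and the strand setting of the counting is not given in the sources used here, so reads from ND6 and from the precursor of the opposite strand across the same bases cannot be told apart. The counts per kilobase of ND6 were 3.95, 3.36 and 3.09 times those of ND5 in wild type 1 to 3 and 2.87 and 1.99 times in knockout 1 and 2. The other overlaps with RefSeq genes were short, namely 2 or 3 bases with a transfer RNA gene for ND1, ND2 and COX1, and 7 bases with ND4L for ND4.

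Per kilobase of gene, COX1 had the highest level and ND5 the lowest in both groups. On that scale the wild type means, in CPM per kilobase with SD over 3 libraries, were 2220 ± 936 for COX1, 1140 ± 381 for mt-Rnr2, 999.1 ± 299.5 for ND1, 821.9 ± 123.0 for CYTB, 662.4 ± 216.7 for ND6, 434.1 ± 43.0 for ND4, 402.8 ± 107.1 for ND2, 239.0 ± 96.1 for mt-Rnr1 and 188.4 ± 42.9 for ND5. Neighbours in this order differed by less than the larger of their SDs from mt-Rnr2 down to ND6, between ND4 and ND2, and between mt-Rnr1 and ND5. In knockout, with SD over 2 libraries, COX1 had 5254 ± 547, mt-Rnr2 3478 ± 1237, ND1 2489 ± 23.8 and CYTB 1129 ± 67.2 CPM per kilobase. mt-Rnr1 came next in knockout, at 644.0 ± 191.1, ahead of ND4 (583.5 ± 71.3), ND2 (574.4 ± 31.8), ND6 (423.3 ± 38.6) and ND5 (178.0 ± 30.1). The pairs mt-Rnr2 and ND1, mt-Rnr1 and ND4, and ND4 and ND2 differed there by less than the larger of their SDs. mt-Rnr1 thus stood 8th of 9 in wild type and 5th in knockout, and ND6 5th in wild type and 8th in knockout.

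The makeup of the mitochondrial counts therefore differed between libraries. COX1 gave 28.4%, 34.5% and 47.7% of the mitochondrial counts in wild type 1 to 3 and 46.1% and 36.2% in knockout 1 and 2, so its part in the mix overlapped between the groups. mt-Rnr2 gave 16.2% to 23.2% in wild type and 21.8% and 33.1% in knockout, with knockout 2 standing apart. The parts of ND2, ND4, ND5, ND6 and CYTB were lower in both knockout libraries than in every wild type library. For ND6 they were 6.76%, 3.40% and 2.25% in wild type and 1.24% and 0.988% in knockout. ND1 lay apart the other way, with 9.55%, 10.9% and 10.9% in wild type 1 to 3 and 12.5% and 11.5% in knockout 1 and 2. Parts of a fixed sum are not independent, since some must fall where others rise. How often other genes lie apart on this scale was not computed.

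**Figure D3:**
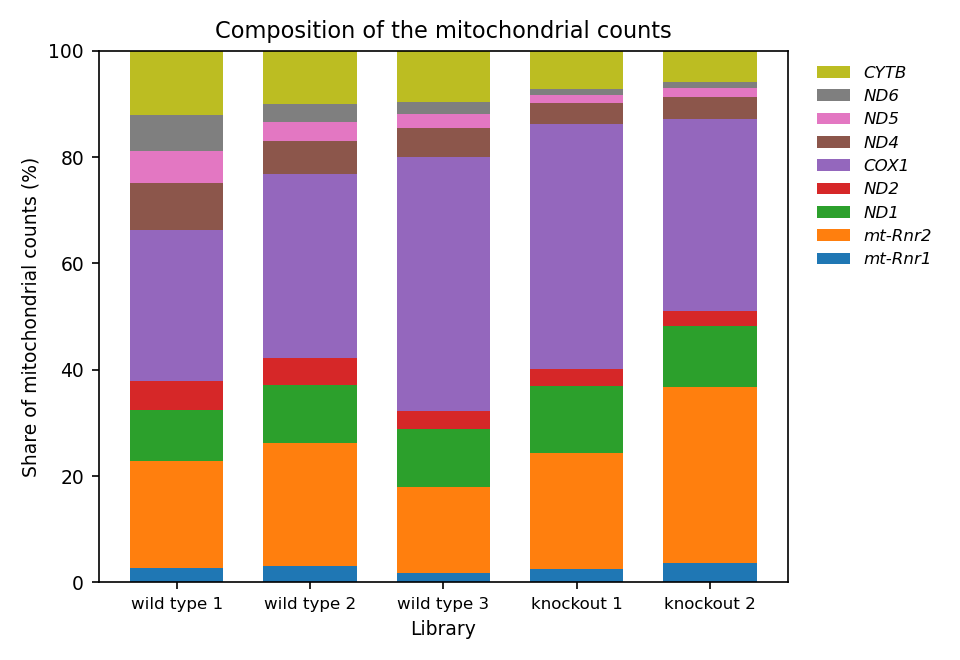
Share of each gene in the summed counts of the 9 mitochondrial genes (%), 1 stacked bar per library, genes stacked in chromosome order from the bottom. ND6 takes 6.76% in wild type 1 and 0.988% in knockout 2, and mt-Rnr2 is widest in knockout 2 at 33.1%.

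To set the genes against each other, the same model was fitted with the summed mitochondrial counts as the scale of each library, an alternative chosen after seeing the data. On this scale ND6 had a log2 fold change, wild type over knockout, of 1.89 (95% interval 1.11 to 2.68) and ND5 of 1.31 (0.55 to 2.08), while mt-Rnr2 was at -0.47 (-1.20 to 0.26) and COX1 at -0.16 (-0.89 to 0.58). Scaling to the mitochondrial counts moves the whole nuclear transcriptome too. On that scale edgeR called 63.7% of all genes, so calls are not given here. The intervals come from the same fit and share this limit. Their standard errors were nearly equal, from 0.371 for mt-Rnr1 to 0.401 for ND6, and draw on spread pooled over all genes. The interval of ND6 did not reach that of mt-Rnr2, mt-Rnr1, ND1 or COX1, but this is not a test between these genes. COX1 and mt-Rnr2 also hold a large part of the sum used as the scale, so their values are not independent of it. The ND6 value was 1.34 without wild type 1 and 1.74 without knockout 2, and ranged up to 2.19 without wild type 3. The ND5 value ranged from 0.91 without wild type 1 to 1.56 without wild type 3, and was 1.21 without knockout 1 and 1.42 without knockout 2. Fits without a knockout library leave 1 library in that group and measure no spread there.

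**Figure D4:**
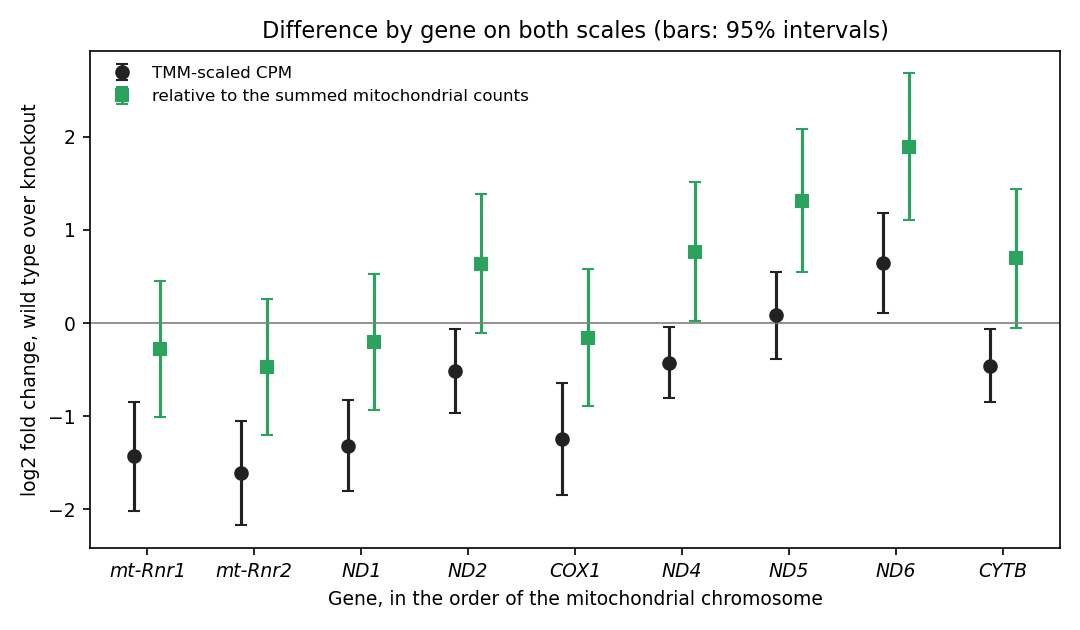
log2 fold change, wild type over knockout, of each mitochondrial gene with its 95% interval, once on TMM-scaled CPM (black circles) and once relative to the summed mitochondrial counts (green squares). On both scales mt-Rnr2 is lowest (-1.61 and -0.47) and ND6 highest (0.64 and 1.89).

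In chromosome order, the log2 fold changes were -1.43 for mt-Rnr1, -1.61 for mt-Rnr2, -1.32 for ND1, -0.51 for ND2, -1.24 for COX1, -0.43 for ND4, 0.08 for ND5, 0.64 for ND6 and -0.46 for CYTB. Differences between neighbours were not tested as such. On the mitochondrial scale the intervals of ND1, ND2 and COX1 overlapped, with the limit on those intervals given above. Between COX1 and ND4, RefSeq places COX2, ATP8, ATP6, COX3, ND3 and ND4L, 6 of the 13 protein-coding genes of the chromosome, and these were not analysed here. RefSeq also annotates Gm10925, a pseudogene on chromosome 1 (24613971 to 24614651) with the synonym mt-Atp6. It and the other 5 listed nuclear copies of mitochondrial genes had 0 genes among those tested, and how reads that match several places were counted is not given in the sources used here.

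Of 80 nuclear genes of oxidative phosphorylation, which make the partners of these subunits, 78 were measured, with a median log2 fold change of -0.17. 0 of the 78 were called by edgeR, where 2.05% of all genes were called, so few calls would be found in a list of this size at the share of all genes. At an unadjusted p under 0.05, 19 of the 78 differed, 13 of them toward knockout and 6 toward wild type, against 20.4% of all genes. DESeq2 called 5 of them, against 8.04% of all genes, and limma-voom 0, against 0.197%. Complex I had a median of -0.21 over 36 genes, complex II, which has no mitochondrially encoded subunit, 0.31 over 4, complex III -0.10 over 9, complex IV -0.31 over 14 and complex V 0.01 over 15. Groups lay apart with knockout above in 28 of the 78 and with wild type above in 10, against 18.1% and 20.4% of all genes. By the smallest p, the leading genes were Ndufa2 of complex I (log2 fold change -0.60, edgeR adjusted p = 0.0976), Sdhd of complex II (0.49, edgeR adjusted p = 0.234), Cyc1, the cytochrome c1 of complex III (0.44, edgeR adjusted p = 0.195), Cox5b of complex IV (-0.54, edgeR adjusted p = 0.121) and Atp5j of complex V (-0.60, edgeR adjusted p = 0.0831).

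Nuclear genes that copy, express or equip the mitochondrial genome were counted in the same way, in lists of 9 to 75 genes, where the 2.05% of all genes called by edgeR corresponds to few or no calls. Of 29 measured genes of mitochondrial transcription and RNA handling, 0 were called and the median was 0.05. Fastk, of a family of mitochondrial RNA-binding proteins, had the smallest p (log2 fold change -0.71, edgeR adjusted p = 0.0981). 0 of 11 genes of mitochondrial DNA maintenance were called (median 0.01; Peo1, the replicative helicase Twinkle, -0.80, edgeR adjusted p = 0.211), and 0 of 9 regulators of mitochondrial biogenesis (median -0.07; Pprc1, a coactivator, -0.58, edgeR adjusted p = 0.137). 0 of 24 genes of protein import and the matrix were called (median 0.13; Cs, citrate synthase, 0.69, edgeR adjusted p = 0.112), and 0 of 75 mitochondrial ribosomal protein genes (median -0.07; Mrpl35, 1.19, edgeR adjusted p = 0.0800). At an unadjusted p under 0.05 these lists, in the order given, held 3, 1, 2, 2 and 7 genes, DESeq2 called 1, 0, 0, 0 and 1 of them, and limma-voom called 0 in each; the shares over all genes are those given above. The difference between these lists and the mitochondrial genes was not itself tested.

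**Figure D5:**
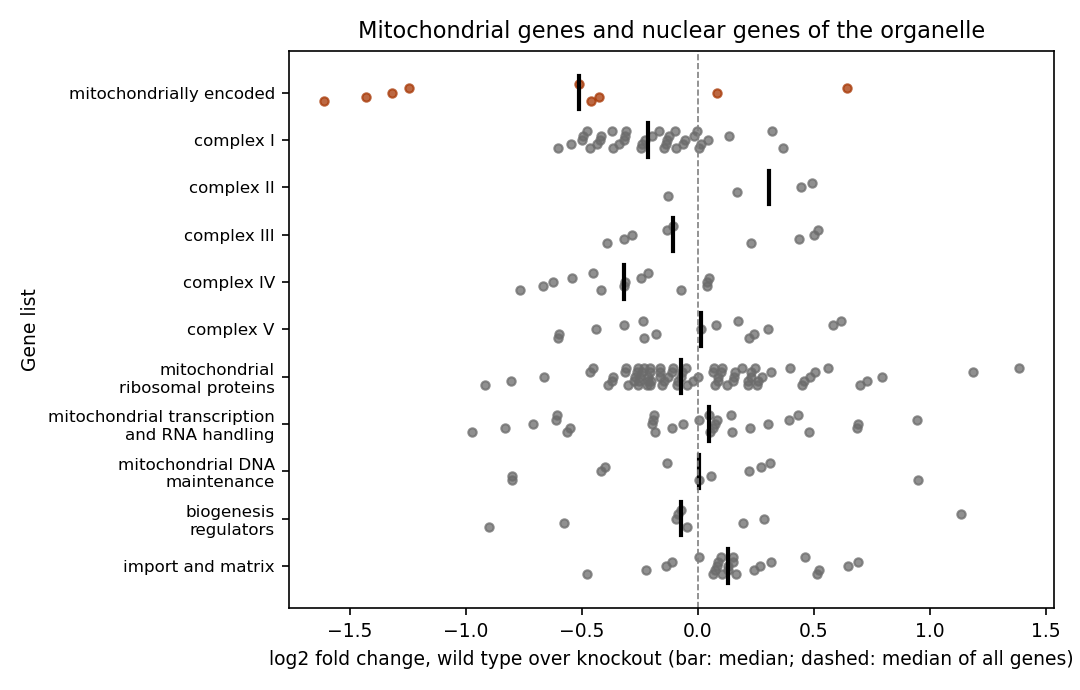
log2 fold change, wild type over knockout, of each measured gene (1 point per gene) in the mitochondrially encoded set and in 10 nuclear lists, with the median of each list as a black bar and the median of all genes as a dashed line. The mitochondrially encoded genes have a median of -0.51, and the nuclear lists have medians from -0.31 for complex IV to 0.31 for complex II.

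Some markers of other cells moved with the genotype labels as well, and their part in the mitochondrial values was not tested. For the calls below and in the next paragraph, edgeR called 1% of all genes higher in knockout and 1.05% higher in wild type. Muscle fibres are rich in mitochondria, and 15 of 18 fibre markers were measured, with 1 called higher in knockout (Casq1, named after its value was seen). Their summed level was 974.2, 890.7 and 1018 CPM in wild type 1 to 3, 769.6 CPM in knockout 1 and 3240 CPM in knockout 2. Knockout 1 had the lowest fibre sum of the 5 libraries, but single markers differed from the sum. Casq1 had 4.72, 5.26 and 3.38 CPM in wild type 1 to 3 and 14.1 and 32.1 CPM in knockout 1 and 2. Of 12 endothelial markers 6 were called higher in knockout, and they summed to 1419 to 1921 CPM in wild type and to 3322 and 3046 CPM in knockout. Of 5 measured red blood cell genes 3 were called higher in knockout, with sums of 220.8 to 300.9 CPM in wild type and 481.9 and 824.9 CPM in knockout.

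In the remaining marker lists, 4 of the 12 muscle stem cell markers were called higher in wild type, and their sums were 5262 to 6078 CPM there and 3332 and 3325 CPM in knockout. 2 of 8 fibro-adipogenic progenitor markers were called higher in wild type and 1 in knockout (4121 to 6023 against 3510 and 3514 CPM). 0 of 6 pericyte and smooth muscle markers (825.4 to 1048 against 1100 and 1267 CPM) and 0 of 6 measured macrophage markers (236.3 to 364.5 against 354.1 and 369.9 CPM) were called by edgeR (2 and 1 at an unadjusted p under 0.05, 1 and 1 by DESeq2, 0 and 0 by limma-voom), and 1 of 4 Schwann cell markers was called higher in knockout (378.8 to 500.8 against 461.3 and 555.6 CPM). Over all genes the shares were 2.05% by edgeR, 20.4% at an unadjusted edgeR p, 8.04% by DESeq2 and 0.197% by limma-voom. At such shares, 0 edgeR calls among 6 genes are near the share of all genes.

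Among nuclear genes with a symbol and at least 10 CPM on average, the 5 whose profile over the 5 libraries was closest to the mean profile of the mitochondrial genes were Rn7sk, Col27a1, Baz2b, 2310033P09Rik and Tra2a. Likeness was the root mean square difference of centred log2 CPM, which ran from 0.0229 for Rn7sk to 0.0527 for Tra2a among 8389 candidates. Rn7sk, the small nuclear RNA that holds the elongation factor P-TEFb in an inactive form, had 16.5, 23.2 and 16.7 CPM in wild type and 28.9 and 32.4 CPM in knockout. The 5 genes were selected for a profile that is higher in knockout, so their p-values are not independent of that choice. With that limit, 0 of these 5 genes were called by edgeR or limma-voom and 3 by DESeq2, and 5 had an unadjusted p under 0.05. Over all genes the shares were 2.05% by edgeR, 0.197% by limma-voom, 8.04% by DESeq2 and 20.4% at an unadjusted edgeR p. Tra2a, a splicing regulator, had an edgeR adjusted p of 0.0753. Among the mitochondrial genes themselves the distance to their own mean profile ran from 0.144 for ND2 to 0.746 for ND6, so the mean describes ND2, CYTB and ND4 better than it does ND6. Long noncoding RNAs kept in the nucleus were also measured. Neat1, the scaffold RNA of paraspeckles, had 181.3, 368.4 and 314.9 CPM in wild type 1 to 3 and 498.3 and 668.4 CPM in knockout, the same order of libraries as the mitochondrial share. Its log2 fold change was -1.02 at an edgeR adjusted p of 0.0544. The other measured RNAs of that list overlapped between groups and had other orders. Malat1 had 18962.5 CPM in wild type 2 and 16072.7 CPM in knockout 1. Meg3 had 2068.5 CPM in wild type 2 and 1980 CPM in knockout 2. 0 of 3 measured genes of that list were called by edgeR or limma-voom and 1 by DESeq2, with 2 at an unadjusted p under 0.05. The shares over all genes are those given above in this paragraph.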

How the data were processed

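Counts per gene were deposited for the 5 libraries as whole numbers. Per the submitters' processing notes, the authors used the mm10 genome with STAR, Trim Galore, edgeR and Subread's featureCounts. Versions, annotation and strandedness: not given in the sources used here. The deposited table also gives a gene length in bases.

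From these counts, all 11194 genes were fitted in R 4.3.3 with edgeR 4.0.16 (filterByExpr, which removed 0 genes, TMM factors, glmQLFit, two-sided quasi-likelihood F-test, 14.0 degrees of freedom), with p-values adjusted by Benjamini-Hochberg over all genes and a threshold of 0.05. Of the 14.0 degrees of freedom, 3 came from the 5 libraries and 11.0 from spread pooled over all genes. Standard errors came from the coefficient and its F statistic. Alternatives used limma 3.58.1 (voom), DESeq2 1.42.0, other size factors, other filters, thinning, a replicate block and each library left out. Rows without a symbol were named by exact coordinates in RefSeq (GRCm38.p6), where 9 of 9 matched.

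All 9 members are named. Of each nuclear pathway list, the text names called members (at most 3), or otherwise the member with the smallest p. Cell type marker lists are given as counts and sums. The 5 most similar nuclear genes follow the distance given. Members and lists were chosen with earlier results of these data known. Replicates differed by more than sampling noise (chi-square per degree of freedom 17.7 to 258.5).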

Additional observations from a re-analysis of the deposited data

How the results depend on the processing

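The number of mitochondrial genes called was 4 with RLE, upper-quartile or no factors, with the members left out of totals and factors, with no filter or at least 10 counts in every library, with DESeq2 and after thinning. In each of these it was the same 4 genes, and all 9 kept their direction. It was 2 with limma-voom (mt-Rnr2 and ND1) and 0 with the library total as a covariate. There the median reversed to 0.10, with mt-Rnr1 at 0.27, mt-Rnr2 at 0.20, ND2 at 0.10 and ND4 at 0.080; the cause was not tested, and every knockout library had a lower total than every wild type library. With a library left out, the count ran from 1 (without knockout 2) to 4 (without wild type 2), the median from -0.75 (without wild type 2) to -0.42 (without wild type 1) and the share ratio from 1.98 to 2.45. In fits without a knockout library the lone one is assumed to vary like the others. ND5 turned to -0.040 without wild type 1 and -0.082 without knockout 1, and COX1 relative to the mitochondrial total ranged from -0.39 without wild type 3 to 0.029 without knockout 1. The share ratio was 2.19 on TMM-scaled totals and 2.02 without the ribosomal RNAs. With the replicate number as a block the count was 4, the median -0.49, and ND6 (log2 fold change 0.88) was called too, with an edgeR adjusted p of 0.00530. Replicate 3 exists only in wild type, so wild type 3 adds nothing to the genotype difference in that fit. Its values were near those without wild type 3 (ND6 0.87), and its smaller p-values are not separate evidence. The number appears only as a label. Deviations from the group mean correlated at 0.05 and 0.04 across genes for same-numbered libraries. With 2 knockout libraries these deviations mirror each other, so the correlations cannot show if libraries were paired. Genes called over the whole table ranged from 1 (library total as a covariate) to 900 (DESeq2), against 230. Between them lay 22 with limma-voom and 612 with the block. Without a library they were 61 (wild type 1), 348 (wild type 2), 34 (wild type 3), 193 (knockout 1) and 146 (knockout 2). The lowest count of a member in any library was 646.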

Other observations

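Ratios between mitochondrial genes within a library, which do not depend on the library total, also differed between libraries. Per kilobase, COX1 had 1.75, 2.55 and 3.66 times the counts of CYTB in wild type 1 to 3 and 4.80 and 4.50 times in knockout 1 and 2. ND1 had 1.90, 2.31 and 3.35 times the counts of ND2 in wild type 1 to 3 and 4.14 and 4.54 times in knockout 1 and 2. In these 2 ratios wild type 3 lay nearest to the knockout libraries. Other measures ordered the wild type libraries differently. The part of mt-Rnr2 in the mitochondrial counts was 20.1%, 23.2% and 16.2% in wild type 1 to 3, highest in the shallowest of them. The ratios were chosen after their values were seen and have no test.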
